A study of Pimephales promelas and Coturnix japonica and Xenopus laevis with 724 samples.

Results

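Ethinylestradiol was tested in embryos of 2 frogs, the northern leopard frog (Lithobates pipiens, a North American pond frog) and the African clawed frog (Xenopus laevis, a fully aquatic laboratory species). The libraries were chosen by species, chemical and level label, and they number 30 of the 724 in the series. Each frog had 5 libraries labelled HIGH, 5 labelled MED and 5 controls labelled CTRL, whose chemical is given as dmso, the solvent dimethyl sulfoxide. The labels give a level name and no concentration, exposure time, embryo age or sex, and they do not say whether a library is 1 embryo or a pool. The series exposed 6 species to 8 chemicals and measured gene expression by RNA sequencing. The question asked here was whether both frog embryos lacked a response, and which fold changes the counts exclude.

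Ethinylestradiol is the synthetic oestrogen of contraceptive pills, and it reaches rivers with treated sewage. It binds oestrogen receptors, nuclear proteins that then act on DNA to switch target genes on or off. In the liver of egg-laying vertebrates, frogs included, oestrogen switches on the genes of vitellogenin, the precursor of egg yolk, and vitellogenin RNA in male or juvenile fish is a standard sign of oestrogen exposure. The deposited tables count reads per identifier of the form s2f_0000130007, which they share across species and do not pair with gene names. None of the identifiers could be named from the sources used here, so no oestrogen gene list, no cell type marker and no check of the embryo label by its markers could be applied, and no sequence is shown. Identifiers that rose with ethinylestradiol in fish or quail of the same series took the place of an oestrogen gene list.

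The tables hold raw counts. Library totals ran from 5731336 to 14790930 in the leopard frog and from 7313282 to 13418168 in the clawed frog. After identifiers with low counts were removed, 14997 identifiers were tested in the leopard frog and 15057 in the clawed frog. An identifier was called when its Benjamini-Hochberg adjusted p from edgeR's quasi-likelihood test was below 0.05. Libraries of the same level were no more alike than libraries of different levels. The median correlation of log2 normalised counts was 0.979 within and 0.979 between levels in the leopard frog, and 0.960 within and 0.961 between levels in the clawed frog. The labels do not say that libraries came from separate clutches or tanks, and spread of a technical kind may therefore enter every p-value and interval.

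No identifier passed the test in leopard frog embryos at either level. At HIGH, 0 of 14997 were called (0%), the lowest adjusted p was 0.889, and 816 identifiers (5.44%) had an unadjusted p below 0.05. At MED, 0 of 14997 were called (0%), the lowest adjusted p was 0.9998, and 518 (3.45%) had an unadjusted p below 0.05. DESeq2 and limma voom also called 0 at both levels. The log2 fold changes were narrow and centred on 0: at HIGH, 5% lay below -0.35 and 5% above 0.30, with a median of -0.01, and 42 identifiers had an estimate beyond 2-fold.

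In clawed frog embryos no identifier passed edgeR's test at either level, but the MED libraries lay closer to the threshold than the HIGH libraries. At HIGH, 0 of 15057 were called (0%), the lowest adjusted p was 0.9998, and 145 identifiers (0.963%) had an unadjusted p below 0.05. At MED, 0 of 15057 were called (0%), the lowest adjusted p was 0.273, and 1535 (10.2%) had an unadjusted p below 0.05. The log2 fold changes spread wider at MED, where 185 identifiers had an estimate beyond 2-fold against 35 at HIGH. DESeq2 called 0 at HIGH and 5 of 15052 at MED (0.0332%), 1 higher and 4 lower, while voom called 0 at both levels. With surrogate variables in the edgeR fit, 1 identifier was called at MED, lower, with an adjusted p of 0.0401.

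The 5 identifiers that DESeq2 called at MED in the clawed frog had MED values that did not overlap the controls. The one that was higher had normalised counts of 9.49 to 35.7 in the 5 controls, 57.0 to 83.7 at MED and 20.1 to 46.6 at HIGH, so HIGH lay below MED and overlapped the controls. Its edgeR log2 fold change at MED was 1.60 ± 0.28 (SE, n = 5 against 5), with an adjusted p of 0.273. The one with the lowest edgeR p among those lower had 1.45 to 3.70 in the controls, 0.246 to 0.851 at MED and 1.24 to 2.62 at HIGH, a log2 fold change of -2.18 ± 0.37 (SE) at MED with the same adjusted p. The edgeR adjusted p of the other 3 was 0.387. These identifiers were singled out after their values were seen, and their HIGH values overlapped or came nearer to the controls than their MED values did. The lack of overlap at MED partly follows from that choice, and its share over all tested identifiers was not counted.

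No identifier differed between the levels past the threshold by edgeR. HIGH against MED gave 0 calls in the leopard frog (0%, 926 with an unadjusted p below 0.05) and 0 in the clawed frog (0%, 1881 with an unadjusted p below 0.05, lowest adjusted p 0.319). DESeq2 called 0 and 9. A joint test of any difference among the 3 levels called 0 in both frogs (0% each, 706 and 1246 with an unadjusted p below 0.05), and DESeq2's likelihood ratio test called 0 in the leopard frog and 10 in the clawed frog.

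A lack of calls does not show a lack of change, so the 95% interval of each log2 fold change was used to ask which changes are excluded. A change was counted as excluded when the whole interval lay inside it in both directions. In the leopard frog a 2-fold change was excluded for 92.2% of tested identifiers at HIGH and 91.9% at MED. A 1.5-fold change was excluded for 70.3% and 70.7%, and a 4-fold change for 99.3% and 99.6%. In the clawed frog a 2-fold change was excluded for 84.2% at HIGH and 74.8% at MED, a 1.5-fold change for 47.0% and 34.7%, and a 4-fold change for 99.4% and 98.7%. The largest change inside the 95% interval had a median over identifiers of 1.34-fold in the leopard frog at HIGH and 1.33-fold at MED. In the clawed frog it was 1.52-fold and 1.64-fold. These bounds hold the spread between libraries only, and spread between clutches or tanks may be missing from them.

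**Figure D1:**
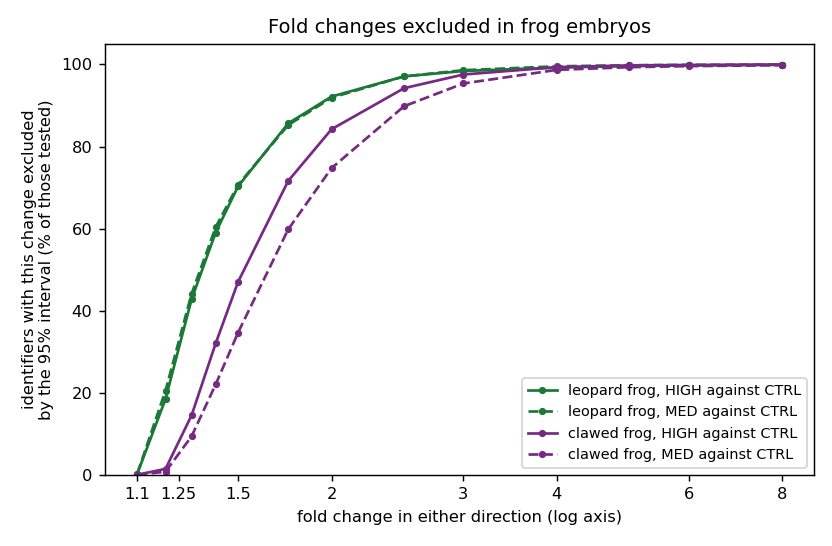
Share of tested identifiers (y axis, percent) for which a fold change of the size on the x axis (log axis, either direction) is excluded by the 95% interval, for each frog and level against its 5 controls. At 2-fold the leopard frog curves lie at 92.2% (HIGH) and 91.9% (MED), and the clawed frog curves at 84.2% and 74.8%.

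The identifiers for which large changes remain possible were mostly those with low counts. In the leopard frog at HIGH, a 2-fold change was excluded for 74.8% of the lowest-expressed 3750 identifiers (median 2.15 normalised counts, CPM) and for 98.8% of the highest-expressed 3749 (median 70.0). In the clawed frog at MED these shares were 46.8% and 86.5%. A 4-fold change was not excluded for 113 leopard frog identifiers at HIGH, 63 of them among the lowest-expressed. In the clawed frog at MED it was not excluded for 197, 127 of them among the lowest-expressed. Any identifier without an interval, or at 0 in all libraries of a compared group, was counted as not excluded.

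Intervals widened to hold for all tested identifiers at once exclude much less. With them a 2-fold change was excluded for 44.6% of identifiers at HIGH and 44.9% at MED in the leopard frog, and for 9.58% and 7.38% in the clawed frog. A 4-fold change was then excluded for 84.5% and 84.0% in the leopard frog and for 63.8% and 58.5% in the clawed frog. For single identifiers without a prior reason to look at them, these wider intervals are the ones that apply.

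Both frogs were then put in 1 fit over the 13294 identifiers tested in both. A change common to the frogs, the mean of their log2 fold changes, was called for 0 identifiers at HIGH (0%, lowest adjusted p 0.429, 291 with an unadjusted p below 0.05) and 0 at MED (0%, lowest adjusted p 0.594, 958). DESeq2 called 1 at HIGH and 0 at MED. With 10 libraries a group the common change was better bounded: 2-fold was excluded for 97.9% of identifiers at HIGH and 97.4% at MED, and 1.5-fold for 84.4% and 79.2%. Taking each frog alone, 2-fold was excluded in both at HIGH for 11200 identifiers (84.3%) and in neither for 326. At MED it was excluded in both for 10047 (75.6%) and in neither for 454.

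The change did not differ between the frogs beyond the threshold. The difference was called for 0 identifiers at HIGH (0%, 238 with an unadjusted p below 0.05) and 0 at MED (0%, 1296). DESeq2 called 0 and 1. At MED the result rested on 1 library: without clawed frog control 4, edgeR called the difference for 21 identifiers and the common change for 1. A 2-fold difference between the frogs was excluded for 76.1% of identifiers at HIGH and 66.6% at MED, so differences of that size remain possible for many. Over the 13294 identifiers, the log2 fold changes of the frogs had a Pearson correlation of 0.09 at HIGH and -0.12 at MED, given as a description only, since identifiers within a library share its depth and are not independent.

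Of the identifiers that ethinylestradiol raised elsewhere in the series and that were tested in frogs, most had a 2-fold rise excluded. That share was near or below the share over all identifiers. In the HIGH against CTRL comparisons of other species, edgeR called higher 15 identifiers in fathead minnow embryos (0.0894% of those tested), 160 in rainbow trout embryos (1%), 21 in adult minnow liver (0.156%), 107 in early-life quail liver (0.824%) and 7 in adult quail liver (0.0587%). These are 287 identifiers, of which 205 were tested in the leopard frog and 203 in the clawed frog. None of them was called in either frog at either level, which follows from the 0 calls over all identifiers. The median log2 fold change of these identifiers at HIGH was -0.03 in the leopard frog and -0.08 in the clawed frog, beside -0.01 and -0.02 over all identifiers. At HIGH a rise of 2-fold was excluded for 193 of the 205 in the leopard frog and 188 of the 203 in the clawed frog, or 94.2% and 92.6%, beside 96.3% and 93.0% of all identifiers. At MED it was excluded for 186 of 205 and 166 of 203, or 90.7% and 81.8%, beside 95.1% and 88.2% of all identifiers. The list depends on the test: DESeq2 called higher 151 in adult minnow liver, 210 in early-life quail liver and 66 in adult quail liver, and 613 identifiers in all, of which 259 are among the 287. With that list, chosen after the data were seen, 474 were tested in the leopard frog and 466 in the clawed frog. That edgeR called 0 of them at either level again follows from its 0 calls over all identifiers. A 2-fold rise was excluded for 96.4% and 93.6% at HIGH, beside 96.3% and 93.0% of all identifiers. At MED it was excluded for 94.9% and 87.1%, beside 95.1% and 88.2% of all.

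The bound matters most where the rise elsewhere was large. Of the 287 identifiers, 74 had a mean rise of over 4-fold in the comparisons that called them. That mean leaves out comparisons that did not call the identifier, and it often came from 1 liver comparison. One such identifier had a log2 fold change of 5.89 in adult minnow liver, but -0.02 and -0.06 in minnow and trout embryos. Others were called higher in both fish embryos, s2f_0000130007 among them. Whether tissue has a part was not tested. The leopard frog tested 41 of the 74, and at HIGH their log2 fold changes ran from -0.86 to 0.48, with 14 above 0, beside 48.2% of all identifiers. The clawed frog tested 43, which ran from -0.94 to 0.53 at HIGH, with 18 above 0, beside 43.7% of all. At MED they ran from -0.66 to 0.65 with 21 of 41 above 0 in the leopard frog (49.8% of all), and from -1.52 to 0.91 with 12 of 43 above 0 in the clawed frog (50.8% of all). At HIGH the upper end of the interval lay below the rise seen elsewhere for 41 of 41 and 43 of 43. At MED it did so for 41 of 41 and 42 of 43. These counts are near the share over all identifiers, for which a 4-fold change was excluded in 99.3% and 99.4% at HIGH. At MED that share was 99.6% and 98.7%. The rise elsewhere was an estimate picked by its call, and it was used without its error. The intervals of trout-raised identifiers, whose rise was smaller (median log2 fold change 0.84 for those tested in the leopard frog), lay below the trout value at HIGH for 92 of 102 in the leopard frog and 85 of 100 in the clawed frog. At MED they did so for 88 of 102 and 76 of 100. A matching share over all identifiers was not counted.

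**Figure D2:**
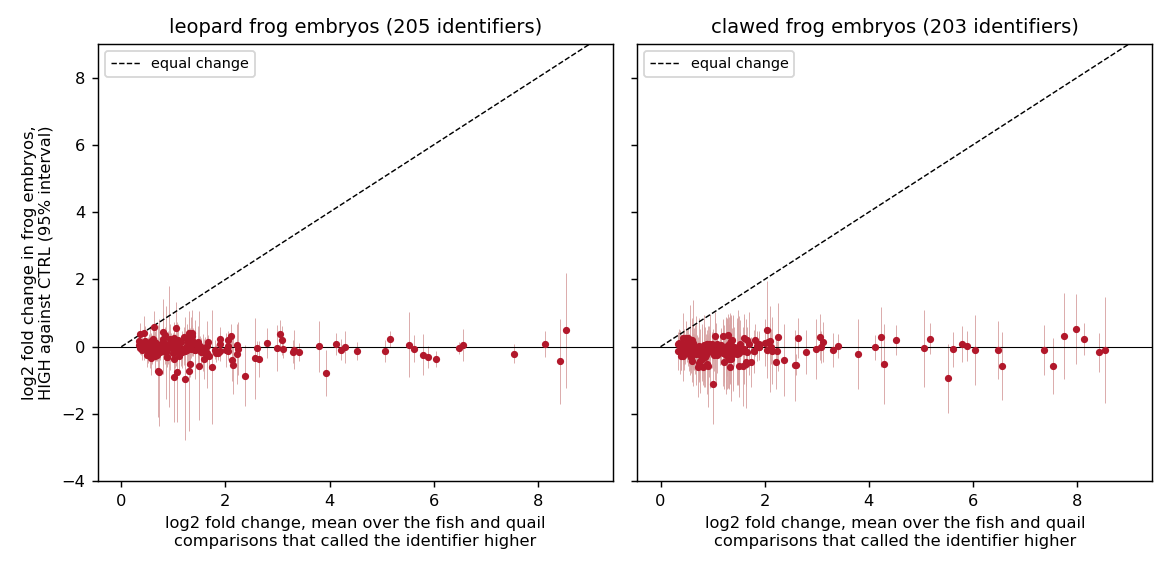
Each point is an identifier called higher in at least 1 fish or quail comparison and tested in the frog (205 and 203). The x axis gives its mean log2 fold change in those comparisons and the y axis its log2 fold change in frog embryos at HIGH with the 95% interval. The dashed line marks equal change. Points lie along 0 whatever that mean rise, and no identifier with a mean rise of over 4-fold has an interval that reaches the dashed line. The mean leaves out comparisons that did not call the identifier, and some of these identifiers were also near 0 in minnow and trout embryos.

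Of the 15 identifiers raised in at least 2 of those comparisons, few could be tested in frogs. The leopard frog tested 4, held 6 more with total counts of 1 to 108 over its 15 libraries, and had no row for 5. The clawed frog tested 5, held 4 more with total counts of 1 to 60, and had no row for 6. Counts this low leave small changes undetectable, and a rise of the size seen elsewhere lay outside the interval for only some of these identifiers. In the clawed frog, one with 2 counts in the controls had an upper end of 5.19-fold, above its mean rise of 1.905-fold elsewhere. In the leopard frog, one identifier with a mean rise of 164-fold elsewhere had 10 counts over the 5 controls, 10 at MED and 13 at HIGH. Its HIGH to CTRL ratio was 1.11 (95% exact interval 0.449 to 2.82). Another with a mean rise of 143-fold had 20, 18 and 21, a ratio of 0.894 (0.461 to 1.74). The upper end lay below the rise elsewhere for 5 of the 6 low-count identifiers in the leopard frog and 1 of 4 in the clawed frog, where 3 had at most 2 counts in a group. These intervals cover counting error only and leave out the spread between libraries, so they are too narrow. What an identifier without a row did was not analysed here.

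Of the identifiers tested in both frogs, s2f_0000130007 was called higher in the most other comparisons, 4 of 5. It was expressed in frog embryos without ethinylestradiol and its change with it was not called. Normalised counts in the leopard frog controls were 9.50, 4.57, 56.2, 31.7 and 6.91, at MED 30.4, 22.7, 53.6, 27.2 and 9.59, and at HIGH 5.34, 14.8, 34.8, 18.9 and 7.48. The 3 levels overlapped, and library 3 was the highest of each level. In the clawed frog the controls were 31.2, 9.60, 12.6, 12.5 and 13.3, MED ran from 10 to 18.6 and HIGH from 11.2 to 17.9. The clawed frog levels overlapped too, and control 1 stood above the rest. In contrast, minnow embryo controls had 0.186 to 0.572 and HIGH libraries 79.2 to 112, and trout embryo controls had 0.0866 to 0.252 and HIGH libraries 192 to 345. Normalised counts were scaled within each table and not per length, so levels across species are set side by side without a test.

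The log2 fold change of s2f_0000130007 at HIGH was -0.43 ± 0.60 (SE, n = 5 against 5) in the leopard frog, with a 95% interval of -1.70 to 0.84, and -0.16 ± 0.27 in the clawed frog, with an interval of -0.74 to 0.42. The upper ends were 1.79-fold in the leopard frog and 1.33-fold in the clawed frog, and at MED 3.096-fold and 1.28-fold. The sign and the bound rested on single controls. Without leopard frog control 3 the log2 fold change was 0.27 ± 0.57 (SE) at HIGH and 1.08 ± 0.57 at MED, with upper ends of 2.77-fold and 4.84-fold. Without clawed frog control 1 it was 0.24 ± 0.19 and 0.18 ± 0.19, with upper ends of 1.57-fold and 1.504-fold. In minnow and trout embryos it was 7.99 ± 0.66 (n = 5 against 5) and 10.6 ± 0.39 (n = 3 against 3). The minnow controls held 2 to 10 reads of it a library and the trout controls 1 to 3. The size of the fish changes, and of the differences below, therefore rests on control counts near 0. Their SE, derived from F, depended on the fit. For the trout change it was 1.21 when fitted with the leopard frog and 0.57 with the clawed frog, so the value of 0.39 may be too small. The ± values of these changes and differences are not firm. The leopard frog log2 fold change differed by -8.42 ± 0.94 (SE) from that of minnow embryos (edgeR adjusted p 0.000138) and by -11.01 ± 1.35 from that of trout embryos (adjusted p 0.00119). The clawed frog log2 fold change differed by -8.16 ± 0.43 from that of minnow embryos (adjusted p 7.46e-11) and by -10.7 ± 0.62 from that of trout embryos (adjusted p 5.34e-08). All 4 differences were called under each of the 22 (minnow) or 18 (trout) other edgeR settings, which included leaving out each library. The calls that picked s2f_0000130007 include these minnow and trout libraries, so the direction of the differences partly follows from the choice. Differences in concentration, exposure time or embryo age at HIGH cannot be told apart from species here.

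An unnamed identifier was also called higher in 4 of the other comparisons, but only the clawed frog tested it. Its log2 fold change there was -0.10 ± 0.35 (SE) at HIGH, and it differed by -4.08 from minnow embryos and by -6.05 from trout embryos, both called by edgeR. It too was picked by calls that include these fish libraries.

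A second identifier tested in both frogs, s2f_0000280011, called higher in 3 of the other comparisons, gave the tighter bounds. Leopard frog controls had 46.2 to 66.2 normalised counts (median 56.3), MED 52.1 to 61.1 and HIGH 49.5 to 53.6. The log2 fold change at HIGH was -0.12 ± 0.08 (SE), with an upper end of 1.03-fold. Clawed frog controls had 25.2 to 38.9, MED 25.9 to 38.9 and HIGH 28.0 to 34.2, with a log2 fold change at HIGH of -0.00449 ± 0.14 and an upper end of 1.23-fold. In trout embryos the 3 controls had 14.4 to 19.4 and the 3 HIGH libraries 33.9 to 40.5, a log2 fold change of 1.15 ± 0.18. The leopard frog differed from the trout by -1.27 ± 0.16 (adjusted p 0.00119). The clawed frog differed from the trout by -1.16 ± 0.22, which missed the threshold (adjusted p 0.171). In minnow embryos s2f_0000280011 was not called (log2 fold change 0.54 ± 0.35, edgeR adjusted p 0.521). Neither frog's change differed from that of minnow embryos past the threshold. These differences were -0.66 ± 0.39 in the leopard frog (adjusted p 0.621) and -0.54 ± 0.41 in the clawed frog (adjusted p 0.998).

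**Figure D3:**
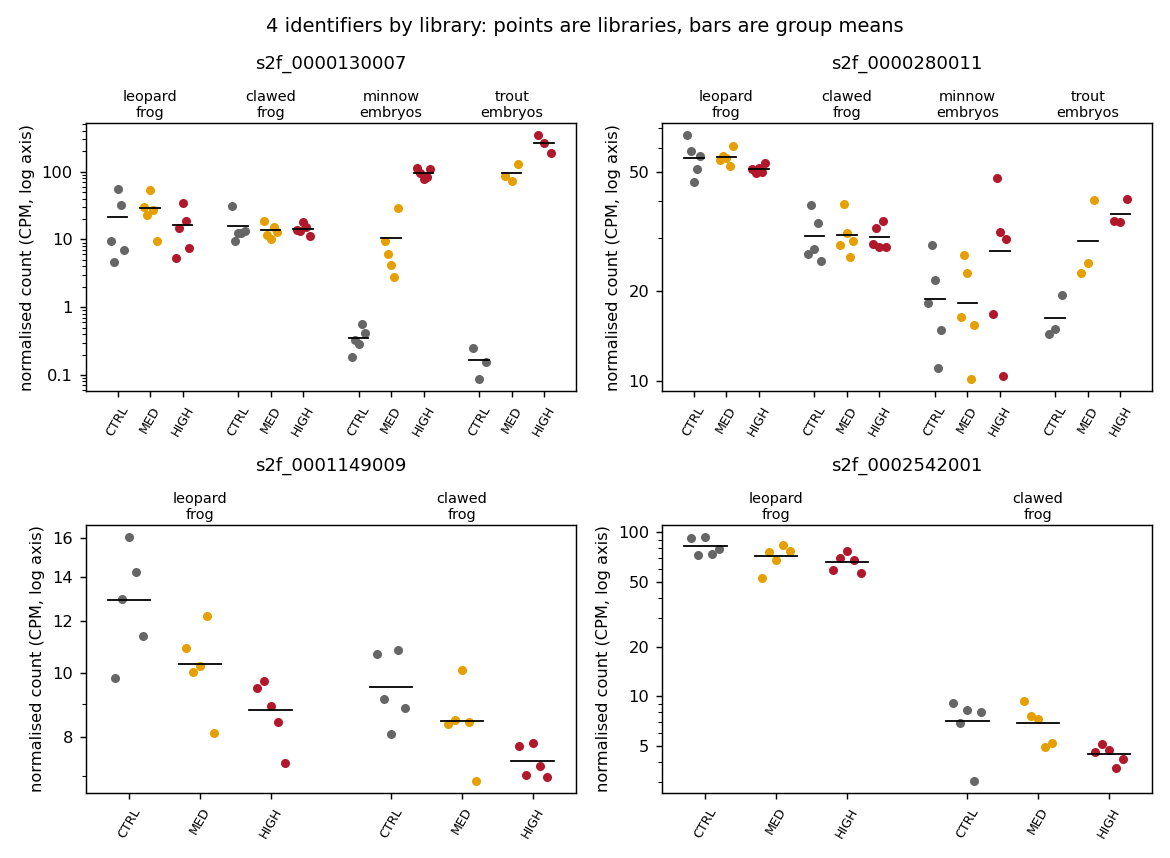
Normalised counts (CPM, log axis) of 4 identifiers in each library, by species and level, with bars at group means. The upper panels show the identifiers raised in other species: s2f_0000130007 rises from under 1 to over 79 in minnow and trout embryos while the frog levels overlap. The lower panels show those with the lowest p for a common fall in the frogs.

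Over all identifiers, edgeR called few differences between the frog and fish responses, and DESeq2 called more. HIGH is a level name in each species, so concentration, exposure time and embryo age cannot be told apart from species. Against minnow embryos, the HIGH change differed for 5 of 11700 identifiers in the leopard frog (0.0427%) and for 2 of 11457 in the clawed frog (0.0175%). Against trout embryos it differed for 13 of 11074 (0.117%) and 2 of 10893 (0.0184%). DESeq2 called 11 and 5 against minnow embryos and 101 and 16 against trout embryos. A 2-fold difference was excluded for 77.5% of identifiers (leopard frog) and 66.4% (clawed frog) against minnow embryos, and for 81.4% and 63.8% against trout embryos, so differences of that size remain possible for many. Of the edgeR calls, 3 of 5 and 2 of 2 against minnow embryos and 13 of 13 and 2 of 2 against trout embryos were identifiers called higher in the fish, and for each of these the frog change was the lower. Of the trout-raised identifiers in the fit, the leopard frog change was the lower for 101 of 102 and the clawed frog change for 100 of 100. The direction partly follows from how the list was chosen, since it was called higher in the same trout libraries. The 4 comparisons share frog and fish controls and are not independent. The leopard frog counts moved with single libraries. Against minnow embryos they fell to 3 without leopard frog control 3, control 4, HIGH 1 or HIGH 4, to 2 without HIGH 5, and to 3 without minnow control C, control D or HIGH E, and they rose to 68 without minnow control A. Against trout embryos they were 20 without leopard frog control 1 or 3, 8 without control 2 or 4, and 3 without trout control A or B. In the clawed frog the count against minnow embryos was 4 without minnow HIGH D.

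The identifiers with the lowest p of a shared fall also missed the threshold. s2f_0001149009 had normalised counts of 9.85, 13.0, 16.1, 14.2 and 11.4 in leopard frog controls and of 9.51, 9.75, 8.92, 8.45 and 7.32 at HIGH. In the clawed frog the controls had 10.7, 9.14, 8.11, 10.9 and 8.86 and the HIGH libraries 7.75, 7.01, 7.85, 7.25 and 6.97. All HIGH libraries lay below all controls of the same frog, and the MED means, 10.3 ± 1.49 and 8.47 ± 1.15 (SD, n = 5), lay between. Its common log2 fold change at HIGH was -0.47 ± 0.09 (SE), with an interval of -0.66 to -0.27, and its edgeR adjusted p was 0.429. It was picked for its low p, so the separation of the libraries and an interval wholly on the side of a fall partly follow from that choice. The share of all identifiers that separate in this way was not counted. That interval is not widened for the number of identifiers tested. Neither table alone called it (edgeR adjusted p 0.889 and 0.9998).

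The second, s2f_0002542001, had 82.3 ± 9.85 normalised counts in leopard frog controls and 66.0 ± 8.35 at HIGH (SD, n = 5), and 7.10 ± 2.38 and 4.45 ± 0.57 in the clawed frog. The levels overlapped in both frogs, in the clawed frog through control 3WE4 at 3.07. Its common log2 fold change at HIGH was -0.51 ± 0.13 (SE) with an adjusted p of 0.9998, and at MED -0.14 ± 0.13.

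The wider intervals of the clawed frog went with a larger spread between its libraries than in other experiments on the species. The median SE of a log2 fold change at HIGH was 0.226 in its ethinylestradiol table, against 0.113 to 0.165 in its 7 other chemicals, and the common biological coefficient of variation was 0.281 against 0.136 to 0.213. The leopard frog ethinylestradiol table, at a median SE of 0.143, lay among its 3 other chemicals (0.134 to 0.147). The clawed frog design did yield calls elsewhere: benzo[a]pyrene called 3169 identifiers at HIGH (20.1%), lead 282 (1.82%), hexabromocyclododecane 123 (0.780%) and selenomethionine 15 (0.0951%), and the other 3 called 0 (0%). In the leopard frog, benzo[a]pyrene called 6 (0.0408%), and chlorpyrifos and fluoxetine 0 (0%).

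**Figure D4:**
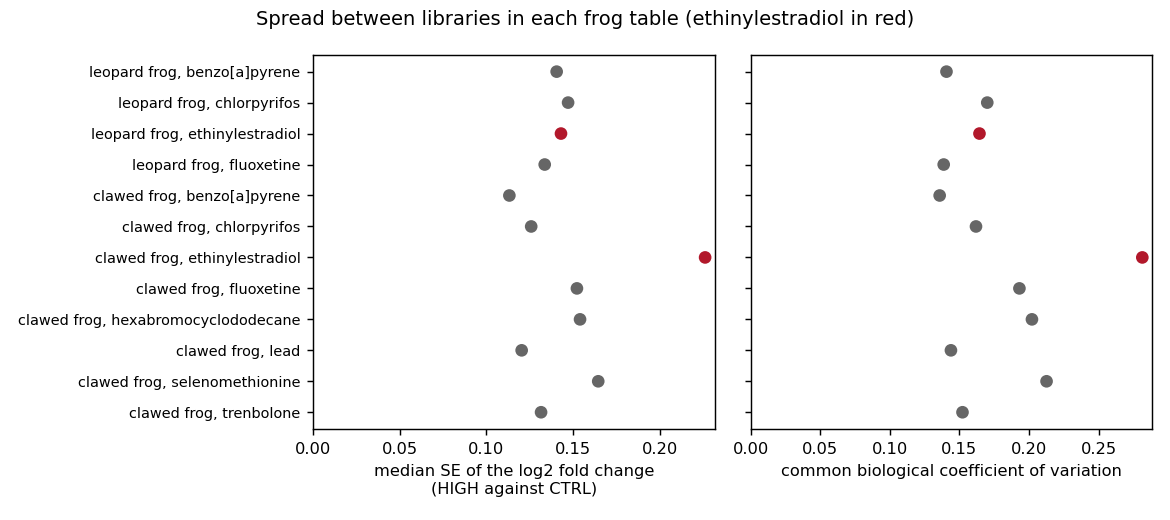
Median SE of the log2 fold change at HIGH (left) and common biological coefficient of variation (right) in each frog table, with ethinylestradiol in red. The clawed frog ethinylestradiol table lies at 0.226 and 0.281, to the right of the 7 other clawed frog tables, while the leopard frog table lies among its neighbours.

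The clawed frog libraries also separated in ways the level names do not follow in order. Component 1 of the log2 normalised counts held 37.8% of the variance, and control 2 (65.3) and HIGH 2 (57.6) stood apart on it. Leaving out both gave 0 calls at HIGH and MED, with a 2-fold change excluded for 80.6% and 78.3%. On component 2, with 20.03% of the variance, the 5 MED libraries (5.85 to 40.6) did not overlap the 5 HIGH libraries (-29.1 to 2.25), while the controls fell on both sides, with 3WE4 at 22.0 and 4 at 27.6 beside the MED libraries and 1, 2 and 3 at -24.1 or below. The TMM scaling factors showed the same split, from 0.846 to 0.979 at MED and from 1.006 to 1.13 at HIGH. Both differences had an exact two-sided permutation p of 0.00794, the smallest that 5 against 5 can give, and 0.0714 after adjustment over 18 comparisons added after the data were seen. No difference from the controls passed, the lowest adjusted p being 0.536. Even full separation in 2 of the 18 comparisons gave only 0.0714, so these permutation tests had little room to pass 0.05. Whether this split has a part in the MED values was not tested.

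**Figure D5:**
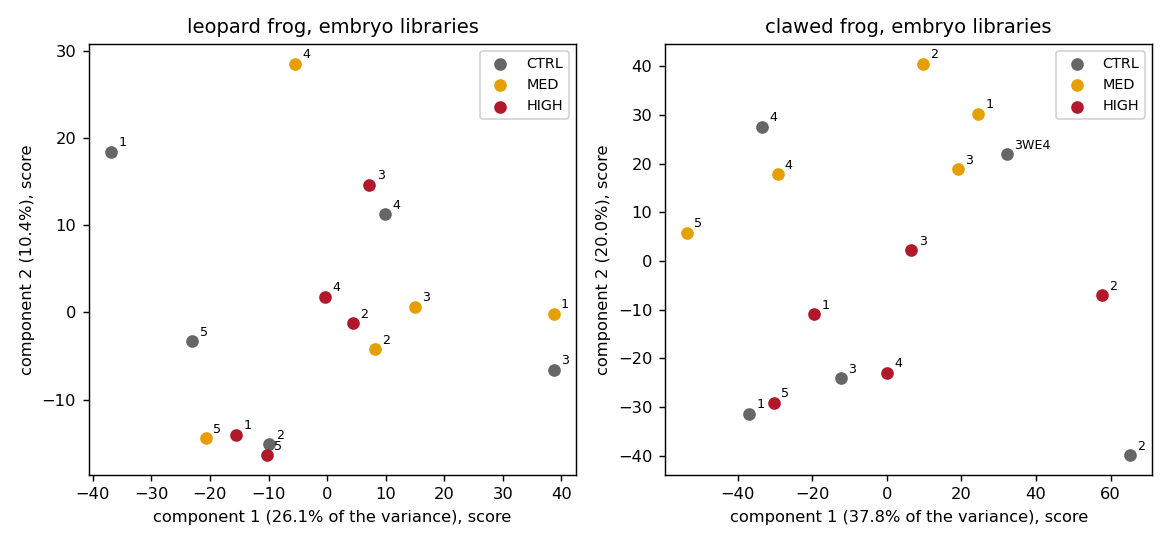
Scores of each embryo library on the first principal components of log2 normalised counts, with the replicate label beside each point. In the leopard frog (left) the 3 levels mix. In the clawed frog (right) the MED and HIGH libraries do not overlap on component 2, the controls fall on both sides, and control 2 and HIGH 2 lie at 65.3 and 57.6 on component 1.

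No whole-library measure differed from the controls past the threshold. Total counts, the number of identifiers with a count and the share of counts in the 10 largest identifiers were compared for each frog and level by exact two-sided permutation tests adjusted over 12 comparisons. A single measure with fully separated groups would reach an adjusted p of only 0.0952, so no difference in 1 measure alone could pass 0.05. The share of the 10 largest in the leopard frog came nearest, 13.6% ± 0.84 at HIGH against 12.4% ± 0.31 in the controls (SD, n = 5), with an exact permutation p of 0.0159 and an adjusted p of 0.190. In the other 11 comparisons the adjusted p was 0.918 or higher.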

How the data were processed

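Counts of reads for each s2f identifier are as the authors deposited them, unnormalised, with ethinylestradiol in embryos of each frog in a table of its own. Per the labels' protocols, frog RNA was extracted with a Qiagen kit and sequenced as paired-end Illumina reads; the aligner, the counter, the reference behind the identifiers and the handling of duplicated gene copies are not stated there. None of the 24172 frog identifiers matched the supplied reference table (0 matches). Every column of the tables used was matched to a sample. Minnow embryo libraries whose level was a number instead of CTRL, MED or HIGH were left out of the fits. A pair of near-identical clawed frog lead controls was summed into a single library.

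Each frog table was fitted alone with all 3 levels in edgeR 4.0.16 (filterByExpr with a minimum count of 10 and a minimum total of 15, TMM factors, quasi-likelihood test, R 4.3.3). The SE is the size of the log2 fold change divided by the square root of F, and 95% intervals use the t distribution on the total degrees of freedom. The wider intervals divide the error rate by the number of identifiers tested. Fits over 2 tables scaled libraries within each table and used a single estimate of spread per identifier for both species. The SE of a species there can differ from that of its own fit. For s2f_0000130007 the trout change had an SE of 1.21 when fitted with the leopard frog and 0.57 with the clawed frog. Alternatives used DESeq2 1.42.0, limma 3.58.1 and sva 3.50.0. The fits were tested on simulated data. Intervals cover the spread between libraries.

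The members and lists were chosen with earlier results of these data known. With no gene names, 4 identifiers are named: those called higher in the most other ethinylestradiol comparisons among identifiers tested in both frogs, and those lower in both frogs with the lowest p of the common change at HIGH. Title numbers are shared by the levels, and the labels do not say whether they pair libraries. Correlations of same-numbered libraries' deviations ran from -0.38 to 0.27 in the leopard frog (median 0.05). In the clawed frog they ran from -0.49 to 0.64 (median 0.098), the highest between control 2 and HIGH 2. For different numbers they ran from -0.41 to 0.515 (median -0.017) and from -0.64 to 0.605 (median -0.012). Libraries were not treated as pairs, and calls with the number as a block are given below. The controls 3 and 3WE4 of the clawed frog share a number, and the labels do not say whether they share embryos. Their counts differed by 53.97 times the chi-square of sampling noise, which does not show that they are separate samples. They were kept apart, and were summed in an alternative added after the data were seen.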

Additional observations from a re-analysis of the deposited data

Results flagged for a closer look

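Among 54 groups of 5 frog libraries examined, 2 held a library far from the others, and chance alone gives about 1 in 20 such groups. Leopard frog control 1, the shallowest library, had 17539 identifiers with a count against 18369 to 18609 in the other controls. Clawed frog control 1 had 31.2 normalised counts of s2f_0000130007 against 9.60 to 13.3 in the other controls.

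The change at HIGH differed between frog and fish embryos for 5 identifiers (leopard frog against minnow), 13 (leopard frog against trout), 2 (clawed frog against minnow) and 2 (clawed frog against trout) by the edgeR interaction test. For s2f_0000130007 the frog minus fish difference in log2 fold change was -8.42, -11.01, -8.16 and -10.7 in that order. For s2f_0000280011 it was called for leopard frog against trout, at -1.27. Both identifiers were picked partly by calls in the same fish libraries, so the direction partly follows from the choice.

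Among identifiers with too few counts to be tested, which held 0.114% of leopard frog counts, 2 were at 0 in every control and above 0 in all 5 HIGH libraries, and 1 in all 5 MED libraries, with total counts of at most 9 and 7. The opposite pattern, 0 in every exposed library and above 0 in all 5 controls, also held for 2 at HIGH and 1 at MED.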

How the results depend on the processing

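With 0 calls by edgeR at HIGH and MED in each frog, the counts stayed at 0 under RLE size factors, no filter on low counts, only the groups compared, voom, and leaving out each library (range 0 to 0 in each). With the replicate block they were also 0 in both frogs, although the labels do not say whether the numbers pair the libraries. The block moved no count of calls in the fits of 1 or both frogs. Clawed frog identifiers with an unadjusted edgeR p below 0.05 rose with it from 145 to 246 at HIGH and from 1535 to 1936 at MED. Clawed frog MED gave 5 calls by DESeq2 and 1 with surrogate variables. By DESeq2, clawed frog HIGH against MED gave 9, any level 10, the common change at HIGH 1 and the difference between frogs at MED 1. Leaving out libraries gave 0 to 0 for the common change and the difference at HIGH, 0 to 1 for the common change at MED and 0 to 21 for the difference at MED. The share of identifiers with a 2-fold change excluded stayed within 1.5 times, and with no filter was 64.5% and 64.1% in the leopard frog and 61.7% and 54.6% in the clawed frog, where untestable identifiers enter the denominator. Leaving out libraries gave 89.6% to 91.8% and 89.2% to 91.3% (leopard frog HIGH and MED), and 78.9% to 84.7% and 67.6% to 76.7% (clawed frog).

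Frog against fish, DESeq2 called 11 (leopard, minnow), 101 (leopard, trout), 5 (clawed, minnow) and 16 (clawed, trout). Leaving out libraries gave 2 to 68, 3 to 20, 2 to 4 and 2 to 3. DESeq2 called more identifiers higher in adult minnow liver (151), early-life quail liver (210) and adult quail liver (66). The clawed frog HIGH against CTRL difference in the share of the largest identifiers was 0.20 percentage points for the 10 largest and -0.11 for the 100 largest. For these results the cause was not tested. Of 328 alternative log2 fold changes of the named identifiers, 324 moved by less than 1 SE and 0 were called. Summing controls 3 and 3WE4, added after the data were seen, gave 0 calls in the clawed frog at both levels, with a 2-fold change excluded for 81.6% and 71.5%, 0 in the fits of both frogs, and 2 and 2 against the fish. Depth limits the bounds for identifiers with low counts, and unnamed identifiers, unstated concentrations and an unstated exposure time limit what the bounds can be compared with.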
